A study of Mus musculus with 108 samples.

Results

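Genes for the proteins of the cytosolic ribosome were examined in 3 chromatin state segmentations of mouse liver. Members were chosen by symbol alone: autosomal protein-coding RefSeq genes named Rpl or Rps followed by a digit, with Rplp0, Rplp1, Rplp2 and Rpsa added and the Rps6k kinases left out. The rule gave 87 members of 20021 autosomal protein-coding genes with a curated transcript. Of these, 43 encode core proteins of the large subunit and 30 encode core proteins of the small subunit. The other 14 are paralogues, retrogenes and genes that only share the name. The rule uses no measured value, but it was set with earlier results of these data known.

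The livers came from C57BL/6 female mice and had been fixed in formalin and embedded in paraffin before ChIP-seq for H3K4me3, H3K27ac, H3K4me1 and H3K27me3. SD 3m comprised 8 mice of 3 months on a standard diet (30 libraries), and SD 12m comprised 8 mice of 12 months on the same diet (29 libraries). CR 12m comprised 9 mice of 12 months on a diet with 30% fewer calories (29 libraries). SD 6m was not analysed here. The libraries of a group were merged by the authors before states were assigned, so each group has 1 segmentation, no test over mice was possible, and none of the differences below has a replicate check. Both 12 month groups are compared with the same SD 3m segmentation. Where 3 values stand together below without group names they are for SD 3m, SD 12m and CR 12m, in that order, and where 2 stand together they are for SD 12m and then CR 12m. The libraries per mark were not the same in the groups (for H3K4me3 7, 8 and 5), and the reads behind each merged file are unknown. Their part in the differences was not tested.

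Each bin of 200 bp carries 1 of 8 states, whose names and marks are those of the authors' model. State 1 (active TSS) combines H3K4me3 with H3K27ac, and state 2 (flanking TSS) has H3K4me1 as well. States 3 and 4 are named active enhancers. State 3 has H3K27ac and H3K4me1 without H3K4me3, and state 4 has a weaker H3K27ac with little H3K4me1. State 5 is a poised enhancer with mainly H3K4me1, state 6 is repressed Polycomb with H3K27me3, state 7 marks repeats and lamina-associated regions, and state 8 is quiescent. The term stretch is used for the unbroken run of bins in states 1 or 2 that holds the bin of the transcription start site (TSS). A state is a label and not a level of transcription. Since liver tissue mixes cell types, fewer cells of a type and less of a mark per cell cannot be told apart. As a check of the tissue, 8 hepatocyte markers (among them Alb, Apoa1 and Ttr) were set beside 8 markers of other lineages. The TSS bin lay in state 1 or 2 in 3, 5 and 4 hepatocyte markers, and in 0, 1 and 0 of the others. Of all autosomal protein-coding genes 46.5%, 40.5% and 35.8% lay there, more in SD 3m than the 37.5% of the hepatocyte markers. With states 3 and 4 counted as well, all 8 hepatocyte markers were included in each group, and Alb was always in state 4. Over all 20021 genes, states 3 and 4 held 1068 and 1040 TSS bins for SD 3m. They held 1542 and 2649 for SD 12m, and 2555 and 2660 for CR 12m. By that wider count, Cdh5, an endothelial cadherin, also entered, with state 1 for SD 12m and state 4 for CR 12m. Col1a1 entered with state 4 for SD 12m, and the remaining markers of other lineages lay outside states 1 to 4 throughout.

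The cytosolic ribosome is built of a small subunit, which reads the mRNA, and a large subunit, which joins the amino acids. Its proteins are needed in near equal numbers, so their genes are among the most evenly and strongly transcribed in any cell, liver included. Their mRNAs usually begin with a C followed by an unbroken run of pyrimidines (the 5′ terminal oligopyrimidine, or TOP, motif), through which mTORC1 and the protein Larp1 set their translation. Many of the genes carry small nucleolar RNAs in their introns, and their abundant mRNAs have been copied back into the genome many times as retrogenes and pseudogenes.

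RefSeq promoter sequences (GRCm38.p6, the assembly of mm10) with the same start as used here were given for 53 of the 73 core members and for 13 of the other 14. Of the 53, 20 (37.7%) had their annotated start on a C, against 13.8% of 15659 autosomal protein-coding promoters. A C with at least 4 more pyrimidines at the start was found in 12 of 53 (22.6%), against 2.18% of all promoters and 2.15% of those with the TSS bin in state 1 or 2 in SD 3m. Within 20 bases of the start, 66.0% of the core members held a C followed by at least 5 pyrimidines, against 33.0% of all promoters. The windows below run from 40 bases before the annotated start to the 20th transcribed base, in exon 1, and the capitals are the unbroken pyrimidine run from the start. They were chosen to show such runs at genes described further on, and all come from the 12 promoters with a run at the start. Most of the 53 annotated starts have no such run.
Rps6: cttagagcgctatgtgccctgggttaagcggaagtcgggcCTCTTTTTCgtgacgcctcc
Rps18: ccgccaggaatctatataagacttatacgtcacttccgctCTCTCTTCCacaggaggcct
Rpl15: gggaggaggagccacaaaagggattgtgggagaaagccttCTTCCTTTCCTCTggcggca
Rpl38: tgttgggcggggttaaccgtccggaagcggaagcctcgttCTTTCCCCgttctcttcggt

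These windows lie at chr4:86857348-86857407 on the minus strand for Rps6, the substrate of the S6 kinases, and at chr17:33955646-33955705 on the minus strand for Rps18. The window of Rpl15 lies at chr14:18270967-18271026 on the minus strand, and that of Rpl38, whose protein is known for its effect on Hox mRNA translation, at chr11:114668540-114668599 on the plus strand. The run was longest in Rpl15, with 13 bases, and had 9 bases in Rps6 and Rps18 and 8 in Rpl38.

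All 1024 words of 10 bases that read the same on both strands were then counted in the same 300 bases (250 before the start and 50 from it on). The most frequent in the core members, and so chosen by its values, was TCTCGCGAGA, with 5 of 53 promoters (9.43%), and the next was found in 2. TCTCGCGAGA occurred in 0.741% of all promoters and 1.33% of those with the TSS bin in state 1 or 2 in SD 3m. The 5 genes are shown with the palindrome in capitals and up to 20 bases on either side, none beyond the 20th transcribed base.
Rpl12: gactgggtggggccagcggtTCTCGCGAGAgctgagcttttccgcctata
Rpl26: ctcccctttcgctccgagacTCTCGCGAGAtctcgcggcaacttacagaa
Rps6: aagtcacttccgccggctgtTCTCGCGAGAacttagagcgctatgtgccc
Rps19: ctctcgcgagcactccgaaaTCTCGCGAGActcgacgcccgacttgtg
Rps28: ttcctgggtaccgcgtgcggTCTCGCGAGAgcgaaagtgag

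The windows lie at chr2:32961638-32961687 (Rpl12, plus), chr11:68901520-68901569 (Rpl26, plus), chr4:86857389-86857438 (Rps6, minus), chr7:24884564-24884611 (Rps19, plus) and chr17:33824543-33824583 (Rps28, minus). The palindrome began 54 bases before the start in Rpl12, 51 in Rps6, 26 in Rpl26, 8 in Rps19 and 1 in Rps28, so that it spans the annotated start in Rps19 and Rps28. Of the other words searched on both strands, CCGGAAG, the core of a site of ETS factors, was found in 41.5% of the core members, in 12.6% of all promoters and in 22.4% of those in state 1 or 2 in SD 3m. GGGCGG, the core of a GC box, was found in 58.5%, 48.4% and 68.0% of the same sets. CCAAT (30.2%, 39.2% and 40.3%), CACGTG (9.43%, 8.12% and 10.9%), GATGGCG (7.55%, 4.66% and 7.63%) and TTTCGCG (3.77%, 1.28% and 2.06%) were the remaining words. TATAAA on the gene's strand, beginning 40 to 20 bases before the start, was found in 0 of 53 core members, in 3.00% of all promoters and in 0.996% of those in state 1 or 2 in SD 3m. The promoters of the core members held a median of 22 CG dinucleotides in 300 bases, the same median as the promoters in state 1 or 2 in SD 3m, and all promoters held a median of 15. A match is a match of letters in this window and not a bound site.

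At 3 months, nearly every core ribosomal protein gene had its TSS bin in an active promoter state. Of the 73 core members, 71 (97.3%) had it in state 1 or 2 at 3 months, 66 (90.4%) at 12 months under SD and 64 (87.7%) under CR. Over all 87 members the counts were 76, 71 and 69. The same was true of 46.5%, 40.5% and 35.8% of all autosomal protein-coding genes. State 1 alone held the TSS bin of 52, 58 and 59 core members, and state 2 that of 19, 8 and 5. Over all genes, state 1 held 7136, 7040 and 6110 TSS bins. The core members in state 1 were thus more numerous in both 12 month groups than in SD 3m, whereas those of all genes were fewer. This was not particular to them. State 1 held 20, 23 and 22 of 28 translation factors and 20, 27 and 22 of 35 genes of RNA polymerase I and rRNA processing. Of 78 mitochondrial ribosomal proteins it held 60, 65 and 54. In 44 of the 73 core members the TSS bin was in state 1 in all 3 groups, against 4932 of 20021 genes. In 63 core members it was in state 1 or 2 in all 3 (86.3%, against 33.0% of all genes).

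**Figure D1:**
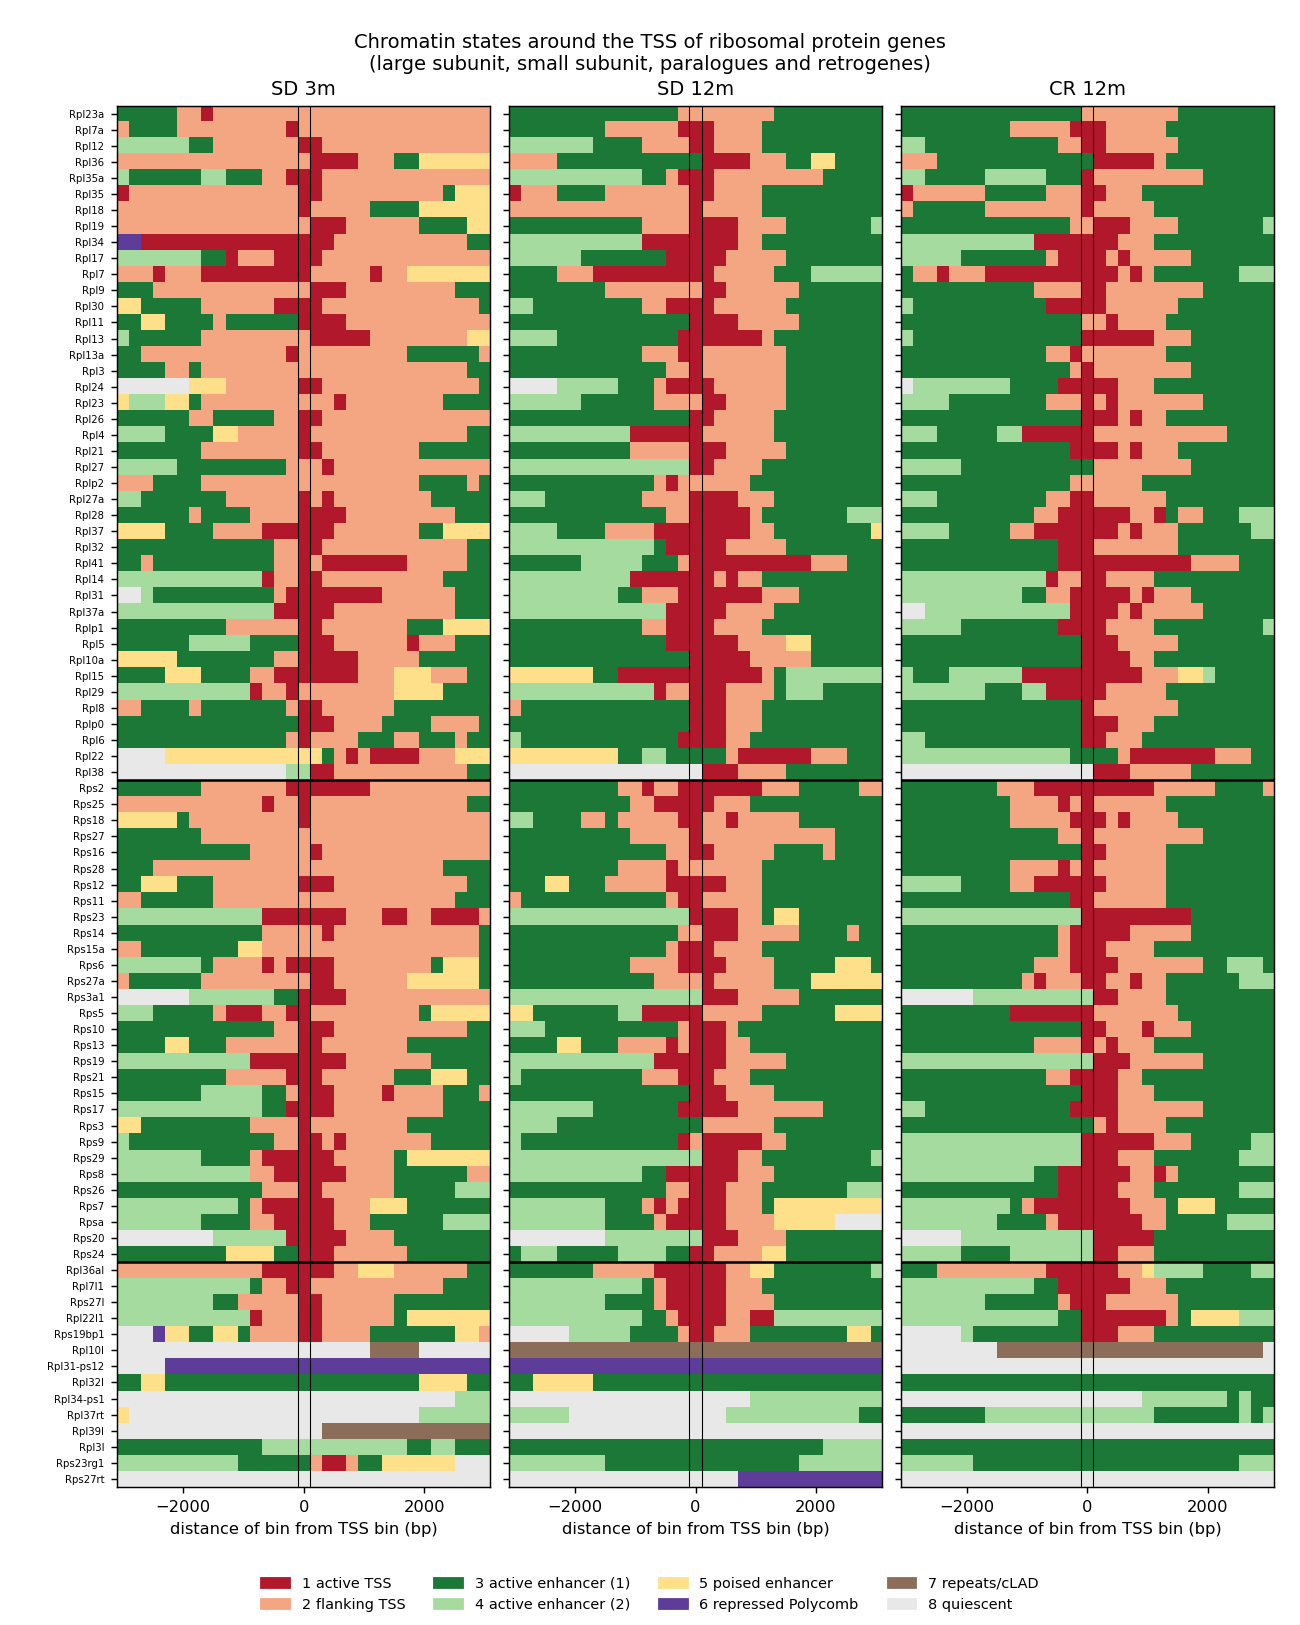
Chromatin state of each bin of 200 bp (colours) from 3000 bp before to 3000 bp after the TSS bin (between the thin vertical lines), in the direction of transcription, for 86 of the 87 members in rows and the 3 groups in panels. Thick lines part 42 large subunit genes, the 30 small subunit genes and the 14 others, each sorted by the width of the stretch in SD 3m. The core genes share a block of state 1 at the start with state 2 downstream, and the band of state 2 is narrower on both sides in SD 12m and CR 12m.

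By subunit, 30, 26 and 25 of the 30 small subunit genes had the TSS bin in state 1 or 2, and 41, 40 and 39 of the 43 large subunit genes. The exceptions lay close to an active state. When the TSS bin was joined with 1 bin to either side, 72 of the 73 core members were in state 1 or 2 in each of the 3 groups. Over all genes the shares within 1 bin were 50.1%, 46.3% and 43.3%.

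Among the members with the TSS bin in state 1 or 2 in SD 3m, 5 of 76 (6.58%) were outside these states in SD 12m and 7 (9.21%) were outside in CR 12m. Among all such genes it was 15.7% and 25.6%. The 5 in SD 12m were Rps3, Rps3a1, Rps20, Rps29 and Rpl36. The 7 in CR 12m were Rps3, Rps3a1, Rps19, Rps20, Rps24, Rpl27 and Rpl36. In every one of them the next bin downstream was in state 1 or 2, so that the active run began 200 bp after the TSS bin. Rps19 and Rps24, both known from Diamond-Blackfan anaemia, illustrate the step. The TSS bin of Rps19 was in state 1 in SD 3m and SD 12m and in state 4 in CR 12m, while the run through it or the next bin measured 3000, 2200 and 1800 bp. For Rps24 the states were the same, and the run measured 1800, 1200 and 1000 bp. Rps29 was the only member to do the opposite, with state 1 in SD 3m and CR 12m and state 4 in SD 12m, and a run of 2400, 1000 and 1200 bp. No member had a TSS bin in state 1 or 2 at 12 months that was outside them in SD 3m. The 11 members outside in SD 3m were outside in all 3 groups. Over all genes, of which 9302 of 20021 were in state 1 or 2 in SD 3m, 277 and 233 made this step. With so few members outside at 3 months, the absence is no contrast to all genes.

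Only 2 core members had the TSS bin outside states 1 and 2 in all 3 groups, and both had an active run close by. For Rpl38 the TSS bin was in state 4 in SD 3m and in state 8 in both 12 month groups, and the run beginning in the next bin measured 2600, 1400 and 1600 bp. Its annotated start, at position 114668580 of chromosome 11, begins with the pyrimidine run printed above. Rpl22, whose protein binds RNA in lymphocytes as well as in the ribosome, had its TSS bin in state 5 in SD 3m and state 3 at 12 months. The transcript with the longest span starts at position 152324436 of chromosome 4. A second curated start of Rpl22, 1290 bp downstream, was in state 1 in all 3 groups.

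Counted over single states, 21 of 87 members (24.1%) in SD 12m and 27 (31.0%) in CR 12m had their TSS bin in another state than at 3 months. Over all genes the shares were 32.7% and 35.5%. The most frequent difference among members was from state 2 to state 1, with 11 and 13 members. The step from state 1 to state 2 was seen in 1 member of each group, namely Rps9 (SD 12m) and Rpl11 (CR 12m). These counts depend on the exact bin: with the lowest state number of the TSS bin and its neighbours they were 12 and 15.

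The stretch around the start was asymmetric and wide in SD 3m. Among the 71 core members with a stretch its median width was 3600 bp in SD 3m (range 1200 to 9600 bp). The median was 2000 bp in SD 12m (66 members, 1000 to 5800 bp) and 2000 bp in CR 12m (64 members, 1000 to 4000 bp). All genes with a stretch had medians of 3200, 2000 and 1800 bp. In SD 3m the stretch of the core members reached a median of 800 bp upstream and 2200 bp downstream of the TSS bin, and the downstream arm was the longer in 84.5% of them, against 74.3% of all genes. The upstream and downstream arms measured 600 and 1200 bp for SD 12m, and 400 and 1200 bp for CR 12m. The arms are medians over the members, so they need not add to the median width.

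The widest stretches of SD 3m belonged to Rpl23a, which sits at the mouth of the exit tunnel (9600 bp), to Rpl7a (9200 bp), Rpl12 and Rpl36 (8000 bp each) and Rpl35a (7800 bp). The same 5 genes had the largest deficits of width in both 12 month groups. Rpl23a measured 1600 bp in both. Rpl7a measured 2600 bp in both, and Rpl12 2000 bp in both. Rpl35a measured 2600 and 2000 bp. Rpl36 had its TSS bin in state 3 in both and is counted as 0, while the run beginning in its next bin measured 1400 and 1200 bp. Among these 5, Rpl12, Rpl7a and Rpl35a have a divergent gene upstream, whose start lies at a distance of 71 bp (Lrsam1), 165 bp (Med22) and 267 bp (Iqcg). Genes picked for wide stretches in SD 3m have more width that can be missing later, so this order says nothing beyond the values.

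The narrowest stretches of SD 3m were those of Rpl6 (1200 bp) and Rplp0 (1400 bp), and those of Rpl8 and Rps20 (1800 bp each) were among the next. Rpl6 measured 1200 and 1000 bp later, and Rplp0, the base of the ribosomal stalk, 1200 bp in both. Rpl8 measured 1200 and 1600 bp. The TSS bin of Rps20 was in state 4 in both, with runs from the next bin of 1400 and 1000 bp. Apart from Rps20, each of these genes differed in width from SD 3m by at most 600 bp.

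**Figure D2:**
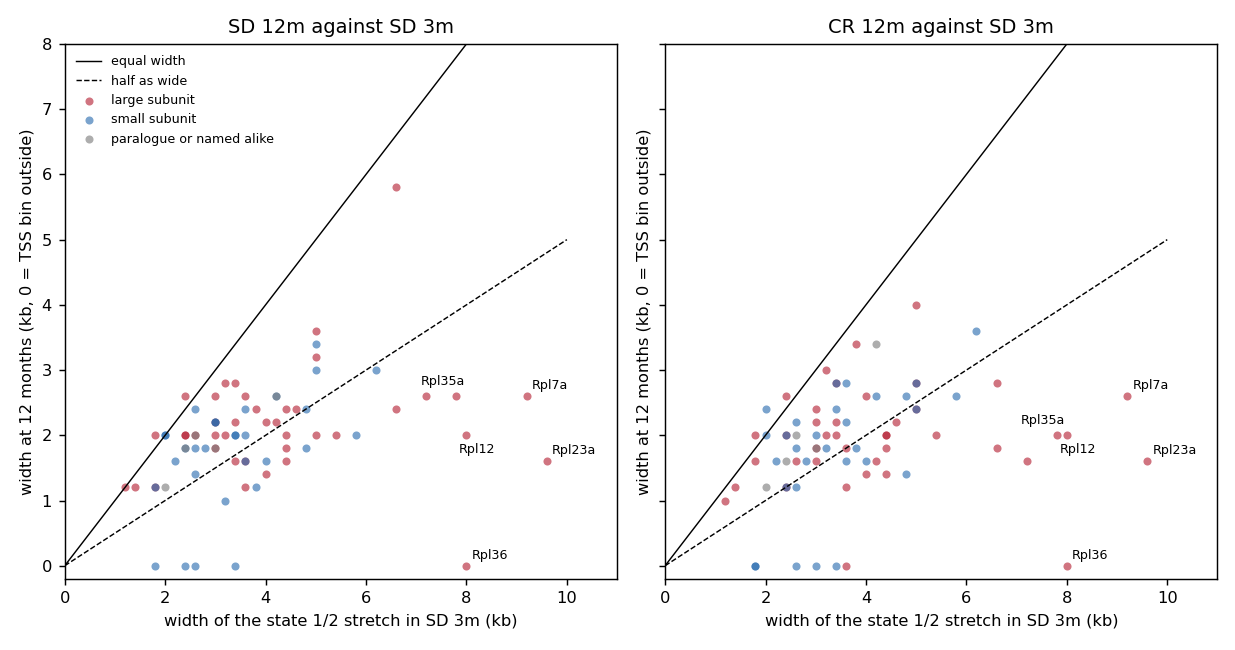
Width of the stretch in SD 3m (horizontal, kb) against its width in SD 12m (left) and CR 12m (right, vertical, kb) for the 76 members with a stretch in SD 3m; a point at 0 has its TSS bin outside states 1 and 2. The solid line marks equal width and the dashed line 0.5 times that width. Most points lie under the solid line, and the 5 widest stretches lie far under the dashed line.

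Nearly all stretches were narrower at 12 months, as they were in the genome at large. Of the 76 members with a stretch in SD 3m, 71 (93.4%) and 72 (94.7%) had a narrower one. Among all such genes it was 93.2% and 96.2%, so the share of members is near the background. The stretch was at most 0.5 times as wide as at 3 months in 28 members (36.8%, against 45.0% of all genes) in SD 12m and in 34 (44.7%, against 59.4%) in CR 12m. The median member measured 60.0% and 56.1% of its SD 3m width, and the median gene 54.5% and 45.5%. A wider stretch than in SD 3m was found in Rpl15 (2400, 2600 and 2600 bp), among others. Rps7 was wider in CR 12m alone (2000, 2000 and 2400 bp). Both differences are 1 or 2 bins. The width of Rpsa, also known as the laminin receptor, was 2000 bp in all 3 groups.

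Genes of proteins with well known roles are given next. The stretch of Rpl5 measured 2600, 2000 and 1600 bp and that of Rpl11 4400, 1800 and 1400 bp. Both proteins bind the 5S rRNA and, when free, Mdm2. The stalk proteins Rplp1 and Rplp2 measured 3000, 2000 and 1600 bp and 3600, 1600 and 1200 bp. Rpl3, next to the peptidyl transferase centre, measured 4400, 2000 and 2000 bp, and Rpl4, which lines the exit tunnel, 3800, 2400 and 3400 bp. Among the members with a stretch in both 12 month groups, Rpl4 has the largest excess of CR 12m over SD 12m (1000 bp). Rpl13a measured 4400, 2400 and 2000 bp. In the small subunit, Rps6 measured 3600, 2400 and 2800 bp, Rps14 3600, 2000 and 2200 bp, and Rps27a, which is made as a fusion with ubiquitin, 3400, 2000 and 2400 bp. Rps3, at the mRNA entry, measured 2600 bp in SD 3m, and its runs from the next bin measured 1200 bp in both 12 month groups. All of these were narrower in both 12 month groups than in SD 3m.

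The width by which the groups differed lay mainly in state 2. Among the 66 core members with a stretch both at 3 months and in SD 12m, 64 had less state 2 at the later age and 1 had more, with medians of 2900 and 1200 bp. State 1 in the same stretches was greater in 37, equal in 14 and smaller in 15, with medians of 600 and 800 bp. In CR 12m, 62 of 64 core members had less state 2 and 36 had more state 1, with the same medians of 600 and 800 bp for state 1. In all genes with a stretch in both groups, 93.5% and 94.4% had less state 2. The share with more state 1 was 56.1% of the core members and 46.8% of all genes for SD 12m, and 56.2% and 37.4% for CR 12m. With the run of state 1 alone in place of the stretch, the median over members was 600 bp at 3 months and 800 bp in both 12 month groups, the opposite order to that of the stretch. Over all autosomal bins state 2 covered 1.20%, 0.452% and 0.385%, and state 1 covered 0.429%, 0.378% and 0.311%.

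The bins of the SD 3m stretch that had left states 1 and 2 were for the most part in state 3, which differs from state 2 by the absence of H3K4me3. Of the 1393 bins in the SD 3m stretches of the core members, 58.0% and 56.2% were still in state 1 or 2, against 54.7% and 47.8% for all genes. Of the core members' bins, state 3 held 39.8% for SD 12m, state 4 1.79% and state 5 0.431%, with none in states 6 to 8. For CR 12m state 3 held 41.4% and state 4 2.37%, with none in states 5 to 8. The shares differed by position. Of the bins that had state 1 at 3 months, 67.9% of those upstream, 92.3% of the TSS bins and 93.9% of those downstream were in state 1 or 2 for SD 12m. For CR 12m the shares were 64.2%, 90.4% and 94.7%. Over all genes these shares were 69.1%, 86.6% and 85.8% for SD 12m, and 62.2%, 77.8% and 81.1% for CR 12m, so the upstream share of the core members is near the background. Of the 81 upstream bins of the core members with state 1 at 3 months, 24.7% and 30.9% were in state 4, against 18.9% and 22.0% over all genes. Rpl34 alone holds a large part of these. Its run reached 2600 bp upstream in SD 3m and 800 bp in both 12 month groups, with state 4 next to it. The excess over all genes thus rests largely on 1 gene. Of the downstream bins with state 1 at 3 months none was in state 4, against 6.93% and 9.94% over all genes. Of the bins that had state 2 at 3 months, 51.5% upstream and 50.4% downstream were in state 1 or 2 for SD 12m, and 40.5% and 53.1% for CR 12m. Over all genes these were 41.1% and 49.1%, and 33.1% and 42.5%. Neighbouring bins are not independent, so no interval is given.

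**Figure D3:**
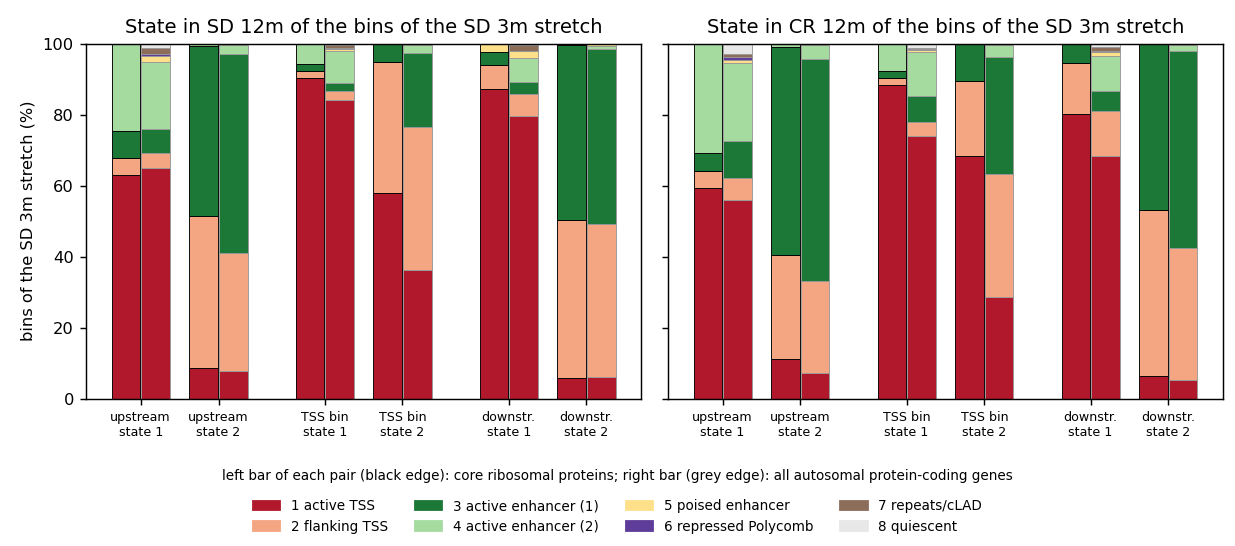
State in SD 12m (left) and CR 12m (right) of the bins that formed the stretch in SD 3m, as percent of the bins on each side of the TSS and in each SD 3m state. Left bars are the 73 core ribosomal proteins and right bars all autosomal protein-coding genes. In both sets, upstream bins with state 1 at 3 months are in part in state 4, and bins with state 2 are in part in state 3 on both sides.

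Seen along the gene, the core members showed a common order of states: state 1 at the start, state 2 behind it and state 3 further on. In SD 3m the bin 1000 bp downstream was in state 2 in 93.2% of the core members, against 75.0% of the 9302 genes with the TSS bin in state 1 or 2 in SD 3m. At the same bin it was 80.8% and 79.5% later, against 50.4% and 44.1%. At 2000 bp, state 2 was seen in 61.6%, 6.85% and 4.11% of the core members. State 3 was seen there in 27.4%, 82.2% and 90.4%, and in 31.9%, 66.0% and 72.2% of the 9302 genes. Upstream, at 400 bp from the TSS bin, state 1 or 2 was found in 82.2%, 67.1% and 56.2% of the core members, against 82.0%, 56.7% and 46.5%.

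**Figure D4:**
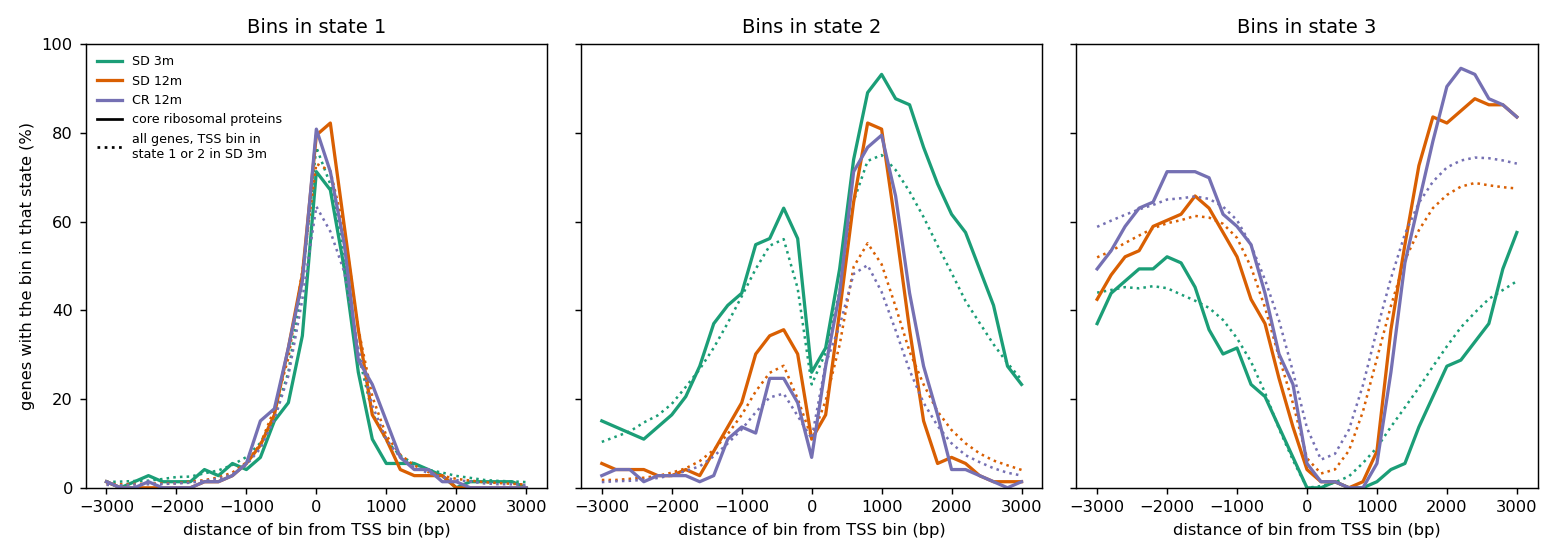
Percent of genes with each bin in state 1 (left), state 2 (middle) and state 3 (right), by distance from the TSS bin in bp in the direction of transcription. Solid lines are the 73 core ribosomal proteins and dotted lines the 9302 genes with the TSS bin in state 1 or 2 in SD 3m; colours are the groups. State 2 at 2000 bp downstream lies at 61.6% of the core members in SD 3m and at 6.85% and 4.11% at 12 months, where most bins are in state 3.

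Ribosomal protein genes are short, and the stretch covered much of their length. The median span of the core members was 3137 bp, against 16880 bp for all genes. In SD 3m a median of 72.7% of the bins of a core gene was in state 1 or 2, and in 23 core members the whole gene was. In SD 12m the median was 43.8% and the whole gene was covered in 2 (Rpl41 and Rps27). In CR 12m it was 44.4% and 4 (Rpl41, Rps2, Rps23 and Rps27). The bin of the transcript end was in state 1 or 2 in 27, 3 and 6 core members, and in state 3 in 29, 56 and 56. All genes, which are longer, had 4.00%, 1.27% and 1.12% of their ends in state 1 or 2, and 17.7%, 19.8% and 23.7% in state 3. The whole gene was in state 1 or 2 in 1.71%, 0.52% and 0.39% of all genes. Their median share of bins in these states was 1.89%, 0.557% and 0%.

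At 12 months the median core member had the same width on either diet. Of the 63 core members with a stretch in both, CR 12m was narrower in 25, equal in 18 and wider in 20, with a median difference of 0. Of 6728 genes with a stretch in both, CR 12m was narrower in 56.8% and wider in 26.2%, with a median of 200 bp less. The largest deficit in CR 12m was in Rpl18, which shares its upstream region with the divergent Sphk2 and measured 6600, 5800 and 2800 bp. A stretch without any upstream bin was seen in 7.04%, 13.6% and 25.0% of the core members with a stretch, and in 8.70%, 20.1% and 23.1% of all genes with a stretch.

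The median stretch was wider in core members with a divergent gene close by. In 13 core members a divergent gene starts within 1 kb upstream, and their stretch had a median of 5000, 2600 and 2600 bp. In the 60 core members without one the medians were 3400, 2000 and 2000 bp. These 60 include members with a neighbouring start on the same strand, such as that of a small nucleolar RNA. Rpl15 and Rps29, both with a divergent gene, measured only 2400 bp in SD 3m. All genes were not split in this way, so whether the difference is particular to the core members was not tested. Rps18 and Vps52, whose starts lie 135 bp apart, shared a stretch of 5000, 3000 and 2800 bp, and Rps27 and Rab13, 67 bp apart, one of 5000, 3400 and 2400 bp. In such pairs the state cannot be given to 1 of the genes.

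The 14 other members fell into separate kinds. Active in all 3 groups, each with the TSS bin in state 1, were Rpl22l1, Rpl36al, Rpl7l1, Rps27l and Rps19bp1, of which the last encodes a binding protein of S19 and not a ribosomal protein. Their stretches measured 2400, 1800 and 1600 bp for Rpl22l1, the paralogue of Rpl22, and 4200, 2600 and 3400 bp for Rpl36al, whose parent Rpl36a is X-linked. They measured 3000, 1800 and 1800 bp for Rpl7l1, 2600, 2000 and 2000 bp for Rps27l, and 2000, 1200 and 1200 bp for Rps19bp1. The other 9 were outside states 1 and 2 in all 3 groups. Rpl3l, the paralogue of Rpl3 known from striated muscle, was in state 4 in SD 3m and state 3 at 12 months. Rpl10l, known from testis, was in state 8 in SD 3m and state 7 at 12 months, and Rpl39l, also known from testis, was in state 8 throughout. Rpl32l and Rps23rg1 were in state 3 throughout, and Rpl34-ps1 and Rps27rt in state 8 throughout. Rpl37rt was in state 8, 8 and 4, and Rpl31-ps12 in state 6, 6 and 8. Reads with poor mapping were removed before deposit, and how much of a near-identical copy could be mapped was not analysed here. Its part in the states of the copies was not tested.

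Rps27rt shows how a copy of a ribosomal protein mRNA sits in other surroundings. Its window and that of its parent Rps27 run from 40 bases before the annotated start to the 20th transcribed base, with the base of the start in capitals.
Rps27: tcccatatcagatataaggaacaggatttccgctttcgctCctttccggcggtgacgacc
Rps27rt: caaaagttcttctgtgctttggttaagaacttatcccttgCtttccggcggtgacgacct

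The window of Rps27 lies at chr3:90213629-90213688 and that of Rps27rt at chr9:114982720-114982779, both on the minus strand. The copy was shifted by 1 base, which gave the best match after the start, and the bases next to the start were left out. Of 40 bases after the start 35 were identical (87.5%), and of 40 before it 6 (15.0%). The other pairs compared (with Rpl37rt, Rps27l, Rpl22l1 and Rps23rg1) had 32.5% to 47.5% after the start and 22.5% to 27.5% before it. Among the pairs compared, only Rps27 and Rps27rt had this pattern. Shifts of more than 3 bases were not tried, so a copy whose annotated start lies further off could not be matched. Copies of parents without a promoter sequence here, such as Rpl10l and Rpl3l, were not compared. The TSS bin of Rps27 was in state 2 in SD 3m and in state 1 in both 12 month groups, and that of Rps27rt was in state 8 in all 3. Copies annotated as pseudogenes were seldom in an active promoter state, as are autosomal bins in general. Of 265 autosomal ribosomal protein pseudogenes, 4, 0 and 1 (1.51%, 0% and 0.377%) had their first bin in state 1 or 2. Of all autosomal bins, 1.63%, 0.831% and 0.697% were in these states, so the shares are near the background. State 8 held 148, 125 and 139 of the first bins (56%, 47% and 52%), against 66%, 52% and 62% of all autosomal bins. The 4 of SD 3m were Rpl21-ps3, Rpl23a-ps4, Rpl31-ps7 and Rpsa-ps3.

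Ribosomal proteins that the rule left out were also in active states. Fau (S30) and Rack1, a scaffold on the small subunit, had the TSS bin in state 1 or 2 in all 3 groups. Fau measured 8400, 2000 and 2400 bp and Rack1 6200, 3000 and 2800 bp. Of 4 X-linked genes, Rpl39 was in state 1 in all groups (1800, 1600 and 1800 bp). Rpl10 and Rpl36a were in state 1 in SD 3m and SD 12m and in states 4 and 8 in CR 12m. Rps4x was in state 6 in SD 3m and in state 1 in both 12 month groups. All 4 had state 1 or 2 within 1 bin of the TSS bin in every group.

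Of the 56 small nucleolar RNA genes inside 28 members, which guide the modification of rRNA and lie in introns, 38 (67.9%), 20 (35.7%) and 23 (41.1%) had their start in state 1 or 2. State 3 held 14, 31 and 31 of them. The 3 inside Rpl23a were all in state 2 in SD 3m, and only Snord42b remained there at 12 months. The 4 of Rpl13a were in state 3 in all groups but for Snord32a, which was in state 2 in SD 3m and SD 12m. Those of 1 host share its stretch and are not independent. No small nucleolar RNA genes outside the members were measured beside them, and stretches were narrower in 93.2% and 96.2% of all genes. The counts are therefore no result about these RNA genes themselves.

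Other genes of ribosome production and use were also mostly in active promoter states. The mitochondrial ribosomal proteins (Mrpl and Mrps), which build a separate ribosome, were in state 1 or 2 in 75, 72 and 65 of 78. Their median stretch was 3000, 1600 and 1600 bp. Genes of RNA polymerase I and rRNA processing were in these states in 31, 31 and 28 of 35 measured, with medians of 3200, 2000 and 2100 bp. Fbl, the methyltransferase that snoRNAs guide, measured 3200, 2000 and 1600 bp, and Polr1b, a subunit of the polymerase, was in state 4 in all 3 groups. Translation factors were in state 1 or 2 in 28, 28 and 25 of 28, with medians of 4200, 2500 and 2400 bp. Eef2, which moves the ribosome along the mRNA, measured 3800, 1600 and 1600 bp. Of 17 regulators of ribosomal protein mRNAs and genes, 15, 14 and 14 were in these states, with Mtor at 2200, 1800 and 1600 bp, Larp1 at 5200, 4000 and 3000 bp, and Larp4 in state 3 in all 3 groups.

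**Figure D5:**
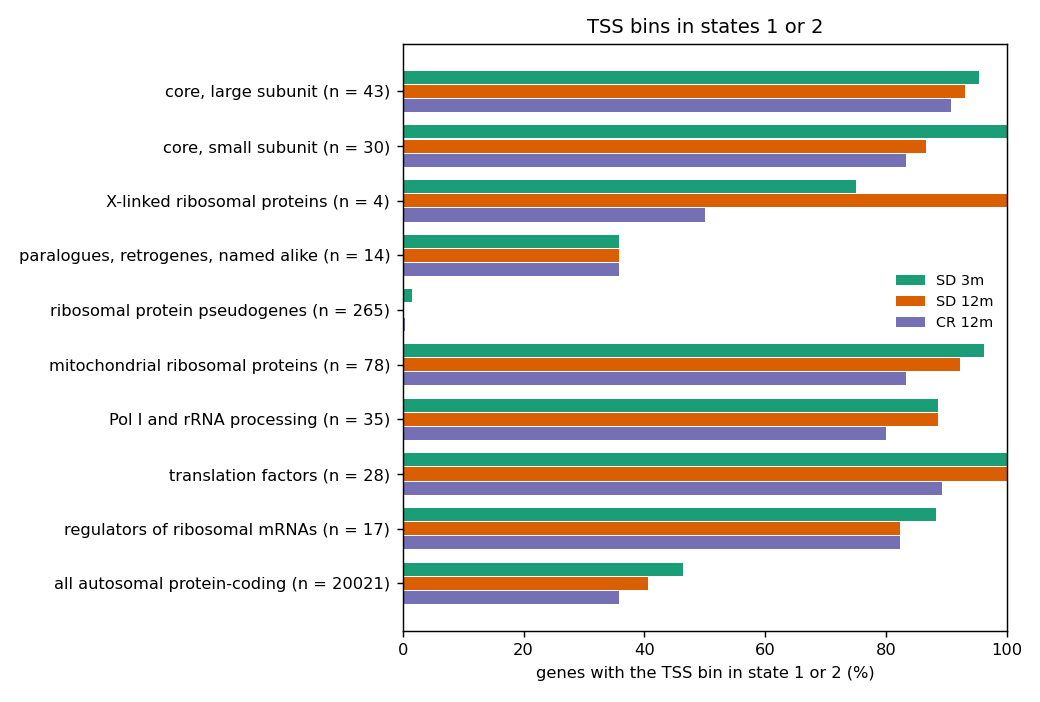
Percent of genes with the TSS bin in state 1 or 2 (horizontal axis), by gene set (rows, with the number of genes) and group (colours). The core subunits lie between 83.3% and 100%, the 14 paralogues, retrogenes and genes named alike at 35.7% in each group, and pseudogenes near 0.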

How the data were processed

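ChIP-seq for 4 histone marks was performed by the authors on fixed mouse livers. The reads were aligned to mm10 with BWA (0.6.2-r126), filtered with SAMtools (0.1.18) for mapping quality, chromosomes 1 to 19 and X and duplicates, merged per group and mark, binarized and segmented with ChromHMM. The deposited value is a state label from 1 to 8 for each bin of 200 bp, with no signal and no read count, so depth is unknown. Bins matched the chromosome lengths of GRCm38.p6.

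Each gene was given the start of its curated RefSeq transcript with the longest genomic span. State, stretch and the states of the SD 3m stretch later were read at the bin of that start with Python 3.11.15, numpy 2.4.6 and pandas 2.3.3, with functions tested on simulated stretches. Members were compared with all genes by counts and medians. Members and gene lists were chosen with earlier results of these data known. Named were the members outside states 1 and 2, the 5 widest and narrowest stretches, the 5 largest losses and gains, all of the paralogue list, 14 genes of fixed choice, and up to 3 genes of each pathway list outside these states in all groups; Rpl18, the genes wholly covered, the pseudogenes and the active pathway and snoRNA examples were named after their values were seen. Genes that this rule also names but whose values are not reported here remain in the counts.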

Additional observations from a re-analysis of the deposited data

How the results depend on the processing

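No paired analysis was possible because each group has 1 merged segmentation, and for the same reason no library could be left out. Of 68 alternatives to 12 results, 54 stayed within 1.5 times the count or within the 95% binomial interval of the median or share, and 14 moved. The interval of the share treats neighbouring bins as independent, which they are not, and is too narrow. Without members that have another annotated start within 1 kb (small nucleolar RNAs included), 58 members remained, by construction with lower counts: 47, 44 and 41 in state 1 or 2 in SD 3m, SD 12m and CR 12m, 17 with another TSS state in CR 12m, and 14 (SD 12m) and 21 (CR 12m) of 47 at most 0.5 times as wide. With state 1 alone the median width was 600 bp at 3 months and 800 bp in both 12 month groups. With all bins within 2 kb of the TSS, which caps the width, the median was 2800 bp in SD 3m, and 16 (SD 12m) and 18 (CR 12m) members were at most 0.5 times as wide. With the TSS bin and its neighbours, 12 (SD 12m) and 15 (CR 12m) members had another state; the bin alone is thus sensitive to shifts of 1 bin.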
